A study of Mus musculus with 6 samples.

Results

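Genes of the cytosolic ribosome were compared between lymphatic endothelial cells (LEC) cultured from a metastatic tumour and LEC cultured from normal skin. The members were the genes whose symbols name a protein of the large subunit (Rpl, Rplp) or the small subunit (Rps, Rpsa), their named paralogues included, and that had an array probe set annotated to no other gene. This gave 48 of the 18194 genes with such a probe set, made up of 42 core genes (22 of the large and 20 of the small subunit) and 6 paralogues: Rpl39l, Rps4l, Rpl22l1, Rpl7l1, Rps27l and Rpl3l. They were measured by 104 probe sets, 1 for each of 24 members and several for each of the other 24. Where a gene had several, the probe set with the highest mean over the 6 arrays was used. Another 110 probe sets list a gene of this kind together with other genes and are described only as a set.

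The ribosome is a machine of RNA and about equimolar proteins that reads messenger RNA in its small subunit and joins amino acids in its large subunit. Most cells make its proteins at very high and closely coordinated levels, and their output, with that of the nucleolus, follows growth signals and transcription factors of the MYC family. A few ribosomal proteins have paralogues with restricted expression that can take their place in the particle, among them Rpl39l, which in mouse is known from male germ cells, and Rpl3l from striated muscle.

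Tumour LEC came from fibrosarcomas formed in C57BL/6 mice by T241 cells that carried GFP and VEGF-C, which drives lymphatic growth. Normal LEC were taken from the dermis of the tail in C57BL/6 females at 8 weeks of age, and the labels used here give no age or sex for the tumour-bearing mice. Cells of both groups were grown on gelatin in endothelial medium and, per the labels, purified with antibodies against the lymphatic receptor LYVE-1, although the text for the tumour cells runs into that for skin before this step, so their last steps are not certain. Each group had 3 Affymetrix arrays, hybridised with RNA amplified from 50 ng of total RNA. The titles of the tumour arrays name tumour cells and the source descriptions name LEC isolated from tumours; the descriptions are followed here. Whether each array stands for its own culture or animal is not given, so p-values reflect array-to-array spread alone, which may be technical, and precision is limited by having 3 arrays a group.

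The values are log2 expression as deposited. All 6 lymphatic or endothelial markers examined (Lyve1, Prox1, Pdpn, Flt4, Pecam1 and Cdh5) were above background on every array, and none passed the test described below. All 6 means were higher in tumour LEC, by 0.03 (Flt4) to 1.44 (Pecam1), and Cdh5 did not overlap between the groups. On normal replicate 1 Pecam1 read 5.59 and Cdh5 9.62, the lowest of the 6 arrays for both. Lyve1 and Prox1 were lowest on normal replicate 2, Pdpn on tumour replicate 1 and Flt4 on tumour replicate 2. Background means the highest value, on the same array, among 27 control probe sets for bacterial genes, which was 3.48, 3.53 and 3.71 in tumour LEC and 3.40, 3.47 and 3.42 in normal LEC. The medians of 10 fibroblast markers were 2.97 to 3.93 on the tumour arrays and 7.48 to 10.67 on the normal arrays, with normal replicate 1 the highest for all 10. The linear model of limma, fitted to 12955 genes whose mean passed a filter on low values, called 28 genes at a Benjamini-Hochberg adjusted p of 0.05, which is 0.216% of those tested, and 22 of them, or 0.17% of those tested, were lower in tumour LEC and 6, or 0.0463%, higher. Of the 48 members 47 passed that filter, Rps16 being the exception.

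Among the members, 1 gene passed this test. Rpl39l fell to background in tumour LEC, whereas the 41 tested core genes differed by -0.80 to 0.39 on the log2 scale and none of them passed. Their median difference was -0.11, against 0.03 over all genes tested. The paralogue Rps4l was lower by a smaller amount on all 3 tumour arrays and missed the threshold, and the other 4 paralogues, which differed by -0.44 to 0.16, did not pass.

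Rpl39l encodes a paralogue of Rpl39, a very small protein that lines the exit tunnel of the large subunit. Its promoter is printed with that of Rpl39 because this gene carries the largest difference among the members, and with that of Rpl14 because it had the largest difference among the core genes. Each is 300 bases, 250 before and 50 from the annotated start, read on the gene's strand from RefSeq (GRCm38.p6), with searched motifs in capitals. The windows are chr16:10169978-10170277 on the plus strand for Rpl39l, chrX:37085173-37085472 on the minus strand for Rpl39 and chr9:120571267-120571566 on the plus strand for Rpl14.
Rpl39l: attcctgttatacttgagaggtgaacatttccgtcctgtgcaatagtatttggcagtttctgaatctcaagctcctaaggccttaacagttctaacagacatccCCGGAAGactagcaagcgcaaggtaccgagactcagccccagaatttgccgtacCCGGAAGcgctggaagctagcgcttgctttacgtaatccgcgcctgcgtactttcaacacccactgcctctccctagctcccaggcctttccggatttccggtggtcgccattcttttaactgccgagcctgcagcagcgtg
Rpl39: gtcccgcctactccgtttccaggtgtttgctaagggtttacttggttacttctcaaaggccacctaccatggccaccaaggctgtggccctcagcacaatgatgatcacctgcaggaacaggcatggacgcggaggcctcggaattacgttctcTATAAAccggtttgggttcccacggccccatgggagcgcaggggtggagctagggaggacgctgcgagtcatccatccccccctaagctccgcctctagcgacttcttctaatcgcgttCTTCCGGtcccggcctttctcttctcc
Rpl14: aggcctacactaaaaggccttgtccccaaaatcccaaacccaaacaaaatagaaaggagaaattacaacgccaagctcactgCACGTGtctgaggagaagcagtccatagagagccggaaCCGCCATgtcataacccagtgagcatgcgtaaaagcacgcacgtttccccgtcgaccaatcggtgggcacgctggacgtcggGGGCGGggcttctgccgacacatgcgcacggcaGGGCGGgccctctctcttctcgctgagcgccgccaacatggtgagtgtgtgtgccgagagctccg

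In these letters the Rpl39l window holds CCGGAAG, the core of sites for ETS factors, at -146 to -140 and at -92 to -86 from the start. The Rpl39 window holds it on the other strand at 24 to 30, and TATAAA at -96 to -91. The Rpl14 window holds CACGTG, the E-box read by MYC proteins, at -168 to -163, with GGGCGG at -48 to -43 and -15 to -10 and ATGGCGG, a YY1-like match, on the other strand at -130 to -124. A match is a run of letters and not a shown binding site.

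Rpl39l read 3.44, 3.52 and 2.91 on the tumour arrays, against 10.38, 8.84 and 8.64 on the normal arrays. All 3 tumour values were at or below the background of their array and all 3 normal values were far above it, as the plot of paralogues by array shows. The tumour LEC mean was 3.29 ± 0.33 and the normal LEC mean 9.29 ± 0.95 (SD, n = 3 each). The fitted difference was -6.00 (SE 0.50, limma, adjusted p = 0.0276), and set against background its level in tumour LEC was at least 52.4-fold lower than in normal LEC. On arrays of whole cultures, fewer cells that express a gene and less RNA per cell cannot be told apart. This gene has 1 probe set of its own, so no other probe set speaks for or against it.

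Rpl39l was highest on normal replicate 1, the array on which all 10 fibroblast markers were highest and the endothelial genes Pecam1 and Cdh5 lowest. The other lymphatic markers examined, Lyve1, Prox1, Pdpn and Flt4, were lowest on other arrays. Of the 10 fibroblast markers 9 were lower on every tumour array than on every normal array, with a median difference of -4.48. Between 2 and 6 of these 10 were at background on each tumour array. The part of these markers in the Rpl39l difference was not tested. Without normal replicate 1 the Rpl39l difference was -5.45 with an adjusted p of 0.00512. The adjusted p was 0.082 without normal replicate 2 and 0.0882 without normal replicate 3, and 0.0815, 0.107 and 0.189 without tumour replicates 1, 2 and 3, with differences of -6.32 to -5.81 in these 5 fits. Germ cell markers, from the cell type in which Rpl39l is best known, read between 2.88 and 3.82 on all arrays for the 5 that passed the filter (Ddx4, Sycp3, Prm1, Prm2 and Tnp1), and at least 4 of these 5 were at background on each array. The medians of 7 leukocyte markers were 8.58, 4.16 and 4.05 on the tumour arrays and 7.20, 5.25 and 6.82 on the normal arrays, so that tumour replicate 1 stood apart, and those of 3 keratinocyte markers 3.82 to 4.46 on the tumour arrays and 3.73 to 3.81 on the normal arrays.

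**Figure D1:**
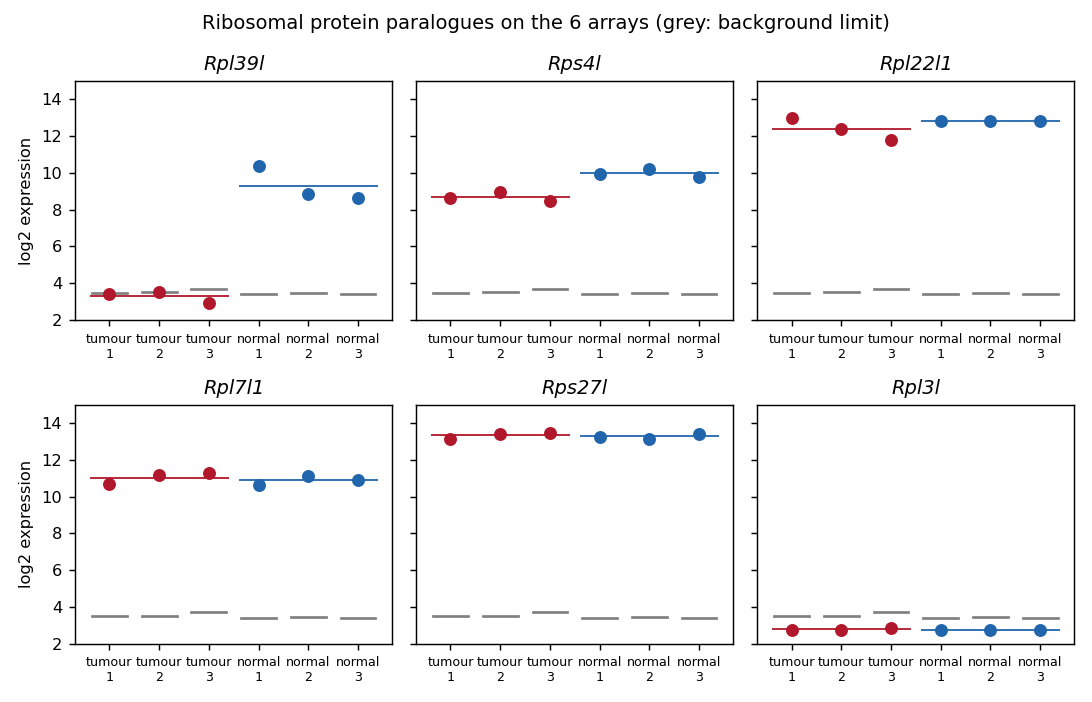
Log2 expression of the 6 ribosomal protein paralogues on each array, tumour LEC (red) left of normal LEC (blue), with group means as lines and the background limit of each array in grey. Rpl39l lies at background on the 3 tumour arrays and at 8.64 to 10.38 on the normal arrays, Rps4l is lower without overlap, and Rpl3l lies below the limit on all 6.

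The Rpl39 probe set used was steady and dim. It read 6.44, 6.44 and 6.52 in tumour LEC, against 6.55, 6.44 and 6.43 in normal LEC, and the groups overlapped. Within each array, Rpl39l minus Rpl39 averaged -3.18 ± 0.38 for tumour LEC, against 2.81 ± 0.88 for normal LEC (SD, n = 3 each). The measured change in this ratio was -5.99 log2 units. Since Rpl39l was at background on the tumour arrays, this is only bounded: with background in its place there, the change was -5.71, so the ratio was lower by at least that much. An exact two-sided permutation test over the arrays gave p = 0.1, the smallest that 3 against 3 arrays allow, and 0.25 after adjustment over the 5 paralogue and parent pairs measured. Such a ratio shows unequal change between probe sets and does not compare their amounts.

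Rps4l, a paralogue of the small subunit gene Rps4x, was the other member with a difference of more than 2-fold. It read 8.65, 8.97 and 8.50 on the tumour arrays, against 9.95, 10.21 and 9.80 on the normal arrays. The groups did not overlap, and unlike Rpl39l it stayed well above background in tumour LEC. The difference was -1.28 (SE 0.18, limma, adjusted p = 0.0778), which did not pass. Its parent Rps4x averaged 14.89 ± 0.03 for tumour LEC, against 14.83 ± 0.03 for normal LEC (SD, n = 3 each), so that Rps4l minus Rps4x changed by -1.34 (exact permutation p = 0.1, adjusted 0.25). With arrays weighted by quality, Rps4l passed at -1.06 (limma, adjusted p = 0.0373). Tumour replicate 2 then had a weight of 3.72 against 0.45 and 0.31 for the other tumour arrays. In every other alternative fit Rps4l missed the threshold, at 0.0545 to 0.227 (limma, adjusted p). Rps4l has 1 probe set of its own.

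Rpl22l1 encodes the paralogue of Rpl22, an RNA-binding protein of the large subunit that the paralogue can replace. It read 12.98, 12.37 and 11.81 in tumour LEC, against 12.81, 12.84 and 12.84 in normal LEC. Tumour replicate 1 was the highest of all arrays and tumour replicate 3 the lowest, while the normal arrays lay within 0.03 of each other. The difference of -0.44 (SE 0.30, adjusted p = 0.503) did not pass. Without tumour replicate 3 it was -0.15, and without tumour replicate 1 -0.74. Rpl22 itself differed by -0.08 (SE 0.10), and the change in the ratio of Rpl22l1 to Rpl22 was -0.36 (exact permutation p = 0.4, adjusted 0.5), with a range of -0.63 (without tumour replicate 1) to -0.08 (without tumour replicate 3).

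Rpl7l1, whose product acts in the nucleolus in assembly of the large subunit, read 10.69, 11.15 and 11.28 in tumour LEC, against 10.62, 11.10 and 10.93 in normal LEC. Its 3 probe sets gave differences of 0.16 to 0.20, and the groups overlapped. Rps27l, a paralogue of Rps27 known as a target of p53, read 13.14, 13.43 and 13.44 in tumour LEC, against 13.26, 13.15 and 13.43 in normal LEC. Its difference was 0.05 (SE 0.14) and took the opposite sign, at -0.01, with each array centred on its median or without normal replicate 2. Rpl3l, the muscle paralogue of Rpl3, was below background on all 6 arrays at 2.73 to 2.84. No fold is given for it, although the dim tumour values all lay above the dim normal ones.

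The ratio of Rpl7l1 to Rpl7 changed by 0.17 and that of Rps27l to Rps27 by 0.11 (exact permutation p = 0.5 and 0.4, each 0.5 after adjustment). Single arrays decided their size: with each left out in turn the first ran from 0.0081 (without normal replicate 1) to 0.34 (without tumour replicate 1) and the second from 0.04 (without normal replicate 1) to 0.21 (without tumour replicate 1). The Rps27 probe set of its own was at background on all 3 tumour arrays and on 1 normal array, at 3.40 to 3.45 in tumour LEC and 3.38 to 3.60 in normal LEC, which limits the second ratio. Rpl3 had no probe set of its own, so the Rpl3l pair was not formed. Set against the median of the core genes on each array, Rps4l differed by -1.16 and Rpl39l, with background in place of its tumour values, by -5.60 or further below 0, with no overlap between groups. The other 4 paralogues differed by -0.33 to 0.27.

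**Figure D2:**
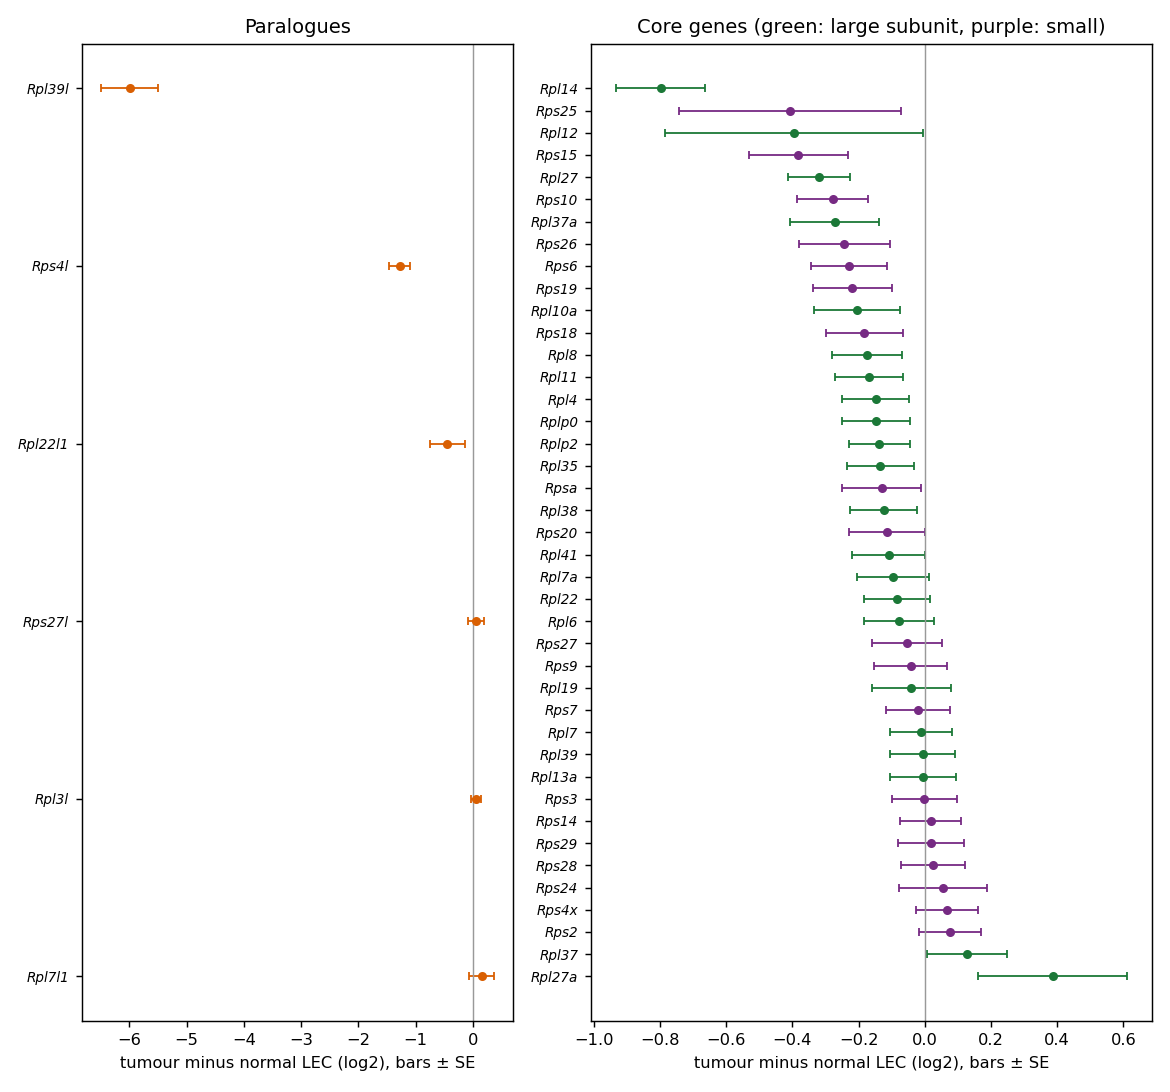
Difference between tumour and normal LEC for each of the 47 tested members on the log2 scale, with bars of 1 SE from the fit across all genes, paralogues on the left and core genes on the right (green for the large, purple for the small subunit). The horizontal scales differ: Rpl39l lies at -6.00, whereas the core genes run from -0.80 (Rpl14) to 0.39 (Rpl27a).

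The core genes were among the brightest on the arrays. Of the 42, 33 had a mean above 13 and 29 above 14, and 40 were above background on every array. The brightest was Rpl35, a protein at the mouth of the exit tunnel, at 15.62, 15.71 and 15.60 in tumour LEC and 15.86, 15.76 and 15.71 in normal LEC. Its difference was -0.13 (SE 0.10), with overlapping arrays. At the other end, Rps16 had only 1 probe set of its own and read 2.07 to 2.17 on every array, so nothing can be said of it here. Besides Rps16 and Rps27, the core genes with a mean of at most 9 were Rpl12, Rpl27a, Rpl37 and Rpl39. How much differences shrink near the top of the scale was not measured.

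Small negative differences were the rule among core genes. Of the 41 tested, 33 (80.5%) were below 0, against 46.9% of all genes, and the quartiles were -0.20 and -0.01. A median of -0.11 is a ratio of 0.925 between tumour and normal LEC. The median was -0.10 with quantile normalization and -0.18 with each array centred on its median. With each array centred on these core genes themselves it is near 0 by construction (0.0004), and the median of all genes then moves to 0.14. Centring moves all genes of an array alike, so the core genes stay 0.14 below the median of all genes by construction. The filter used lies below background, and 2310 to 2866 of the 12955 genes tested were at background on each array. With a 60th percentile filter, 80.0% of core genes and 54.5% of all genes were below 0, and the medians were -0.12 and -0.04. The spread between replicates was narrow: the median pooled SD was 0.08 for core genes and 0.27 for all genes tested.

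The 3 tumour arrays lay below the 3 normal arrays without overlap for 14 of the 41 core genes (34.1%), against 11.6% of all genes tested. They lay above them for 1, Rps2 (2.44%), against 20.9% of all genes. No core gene passed the adjusted threshold, at which 0.216% of all genes were called, and the lowest adjusted p was 0.0906, for Rpl14 (limma). At an unadjusted p of 0.05 there were 4 core genes, or 9.76%, all lower (Rpl14, Rpl27, Rps10 and Rps15). Of all genes 15.5% passed that level in either direction, 6.66% higher and 8.83% lower, so the share of lower core genes was near that of all genes. Among genes with a mean above 13, a level chosen after the data were seen, 12 of 33 core genes (36.4%) and 29 of 313 other genes (9.27%) were lower without overlap, and the medians were -0.11 and 0.04. At an unadjusted limma p of 0.05, 9.09% of these core genes and 2.24% of the other genes above 13 were lower, so at this level the shares were not alike. In either direction the shares were 9.09% and 9.9%. The genes share the same 6 arrays, so these counts are not independent, and no test of the list was made.

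**Figure D3:**
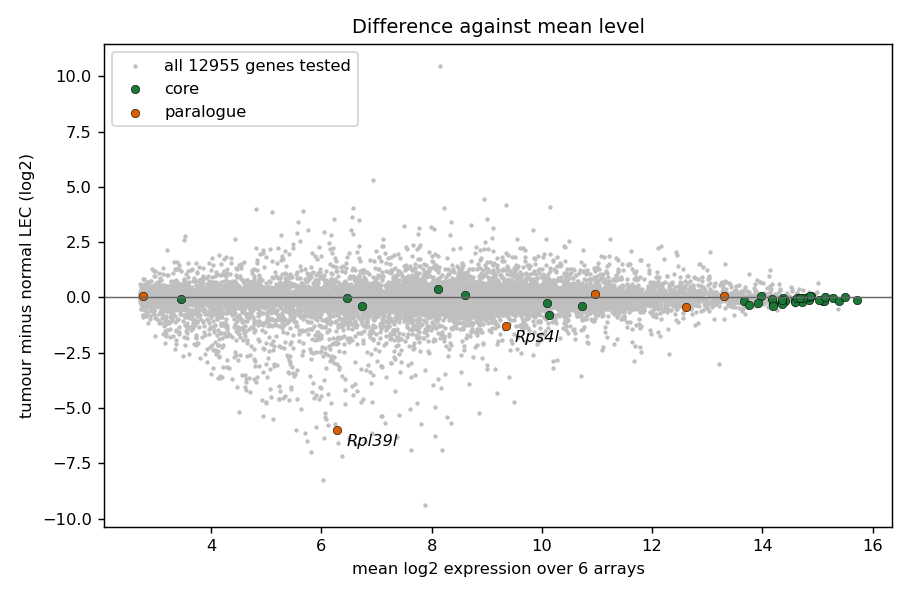
Difference between tumour and normal LEC against mean log2 expression for all 12955 genes tested (grey), with core genes in green and paralogues in orange. Most core genes form a tight group above a mean of 13 and close to 0, and Rpl39l lies apart from the other members at a mean of 6.29 and a difference of -6.00.

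The shift had the same direction on every array of a group and was largest on normal replicate 1. The median deviation of the core genes from their own means was -0.01, -0.06 and -0.04 on the tumour arrays and 0.10, 0.04 and 0.01 on the normal arrays. Normal replicate 1 was the highest array for 26 of the 41 genes, and tumour replicates 2 and 3 the lowest for 13 and 10. Over all 12955 genes tested, normal replicate 1 was the highest for 2158, and tumour replicates 2 and 3 the lowest for 1296 and 2772. Normal replicate 1 also had the widest gap between the 3 prime and 5 prime signals of Gapdh, a measure of RNA quality and amplification, at 2.25 against 1.82 to 2.05 on the other arrays, tumour LEC at 1.83 to 2.02. The narrowest gap, 1.82, was on normal replicate 3. Normal replicate 1 was also the array on which all 10 fibroblast markers were highest and Pecam1 and Cdh5 lowest, whereas Lyve1, Prox1, Pdpn and Flt4 were lowest on other arrays. The part of RNA quality or of these markers in the core difference was not tested. Without normal replicate 1 the core median was -0.09, with 28 of 41 genes below 0.

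**Figure D4:**
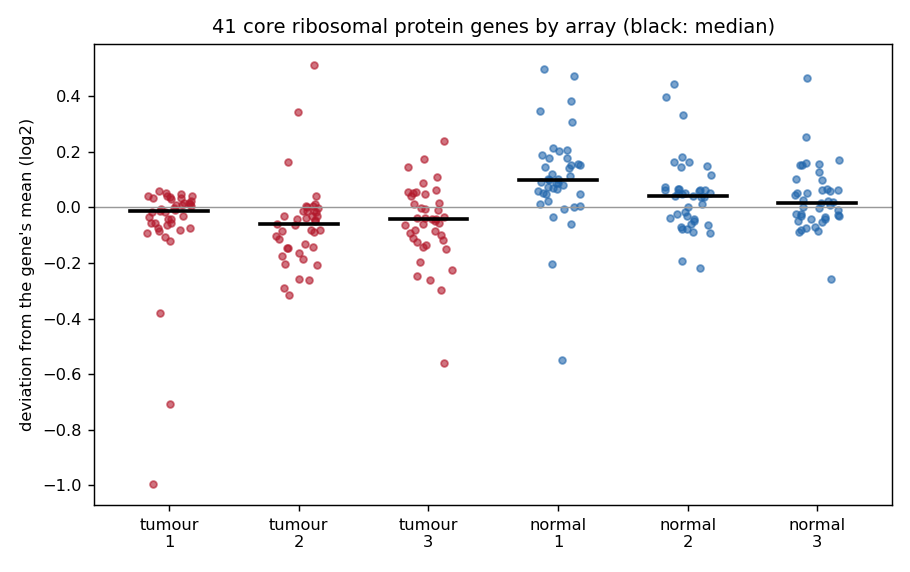
Deviation of each of the 41 tested core genes from its mean over the 6 arrays, in log2 units, by array, with tumour LEC (red) left of normal LEC (blue) and the median of each array as a black line. The medians run from -0.06 to -0.01 on the tumour arrays and from 0.01 to 0.10 on the normal arrays.

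In the large subunit 20 of 22 core genes (90.9%) were below 0, against 46.9% of all genes, with a median of -0.13. Lower without overlap were 9 of the 22 (40.9%), against 11.6% of all genes. Rpl14 read 9.74, 9.87 and 9.56 in tumour LEC, against 10.62, 10.57 and 10.38 in normal LEC. Its lowest normal value exceeded its highest tumour value, and the difference was -0.80 (SE 0.13, limma, adjusted p = 0.0906). Rpl14 passed with array weights only, at -0.67 (adjusted p = 0.0425). Rpl27 read 13.66, 13.59 and 13.57 in tumour LEC, against 13.94, 13.91 and 13.92 in normal LEC, and all 3 of its probe sets were lower, by -0.32 to -0.12. Rpl37a differed by -0.27 (SE 0.13), with its 3 probe sets between -0.27 and -0.16, and Rpl12, which binds near the base of the stalk, by -0.40 with overlapping arrays (SE 0.39).

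The stalk, the flexible arm that recruits translation factors, was represented by Rplp0 and Rplp2. Rplp0 read 15.42, 15.28 and 15.24 in tumour LEC, against 15.48, 15.45 and 15.45 in normal LEC. Rplp2 differed by -0.14 (SE 0.09), close to the -0.15 of Rplp0 (SE 0.10), and for both genes the groups did not overlap. The 2 large subunit genes above 0 were Rpl27a at 0.39 (SE 0.22, adjusted p = 0.452) and Rpl37 at 0.13 (SE 0.12, adjusted p = 0.595). Both were measured by dim probe sets, at means of 8.12 and 8.61, and their arrays overlapped.

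In the small subunit 13 of 19 tested core genes (68.4%) were below 0, against 46.9% of all genes, with a median of -0.05. Lower without overlap were 5 of the 19 (26.3%), against 11.6% of all genes. Rps15, which lies near the decoding site, read 14.19, 13.87 and 13.93 in tumour LEC, against 14.57, 14.22 and 14.34 in normal LEC. Its difference was -0.38 (SE 0.15, limma, adjusted p = 0.315), and its other probe set gave -0.35. Rps10, at the entry of the messenger RNA channel, read 14.31, 14.09 and 14.23 in tumour LEC, against 14.50, 14.47 and 14.50 in normal LEC. Its 6 probe sets ranged from -0.28 to 0.03, and the only probe set above 0 read 2.77 to 2.83, below background on every array. Rps26, at the exit of that channel, differed by -0.24 (SE 0.14), and Rps25, which some viral RNAs need for initiation, by -0.41 with overlapping arrays (SE 0.34). Rps6, the substrate of S6 kinase, differed by -0.23 (SE 0.11) without overlap.

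The 6 small subunit genes above 0 were Rps2 at 0.08, Rps4x at 0.07, Rps24 at 0.05 and Rps28, Rps29 and Rps14 at 0.02 each. Rps2, at the entry of the messenger RNA channel, read 14.94, 14.89 and 14.94 in tumour LEC, against 14.89, 14.84 and 14.82 in normal LEC, where the closest values of the groups nearly touched. The SE of these 6 differences was 0.09 to 0.13, so none exceeded its SE. Whether the subunits differ from each other was not tested, and the order of their medians depended on the choice of probe sets. With the mean of probe sets the medians were -0.15 for the large and -0.16 for the small subunit. Without probe sets ending in _x_at, _s_at or _a_at they were -0.08 and -0.30, where some small subunit genes were measured below background.

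Probe sets limited several of these values. The used probe set of 31 of the 42 core genes and of 2 paralogues ends in _x_at, _s_at or _a_at, endings the manufacturer gives to probe sets that can match more than 1 transcript. With those left out, 20 core genes could be tested, 16 of them below 0, with a median of -0.14. Some of these genes were then read from a dimmer probe set, and those of Rps10, Rps18 and Rps20 were below background on every array. Of 22 members with 2 or more probe sets above the filter, 11 had the same sign in all, and the probe sets of a gene differed by a median of 0.16, more than the core median itself. That filter (2.71) lies below background (3.40 to 3.71), so some of these probe sets were at background. In Rps10 and Rps18 the probe sets above 0 were at background on every array. The widest gap was in Rps24, whose 6 probe sets ran from -0.41 to 0.89. The Rps24 probe set at 0.89 was below background on all arrays but tumour replicate 3, where it read 5.37. The 105 probe sets above the filter that list such a gene among several had a median difference of -0.04, with 67.6% below 0, 17.1% lower and 6.67% higher without overlap. Over all 27060 probe sets above the filter the median was 0.04, with 44.2% below 0, 10.1% lower and 23.4% higher without overlap.

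Of the ribosomal proteins that the naming rule leaves out, Fau, which carries the small subunit protein S30 fused to a ubiquitin-like protein, read 13.58, 12.96 and 13.19 in tumour LEC, against 13.82, 13.58 and 13.64 in normal LEC. The groups just failed to touch, and the difference was -0.44 (SE 0.19, limma, adjusted p = 0.343). Rps3a1 differed by -0.08 (SE 0.10).

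The machinery that builds and uses ribosomes was not called either. None of 59 ribosome biogenesis genes passed the limma test, and 86.4% were below 0, against 46.9% of all genes, with a median of -0.29. At an unadjusted p of 0.05, 1 of the 59 was lower (1.69%), a smaller share than the 8.83% of all genes. That gene was Nhp2, a protein of box H/ACA particles that guide RNA modification, which read 11.66, 12.55 and 12.12 in tumour LEC, against 12.84, 13.44 and 12.77 in normal LEC, without overlap. Noc2l differed by -0.68 (SE 0.29), Fbl, the methyltransferase of nucleolar RNA, by -0.71 (SE 0.31), and Sbds, which helps release the large subunit, by 0.52 (SE 0.23). This list was uneven between arrays, with median deviations of -0.87, 0.10 and 0.32 on the tumour arrays and -0.07, 0.58 and 0.02 on the normal arrays. Tumour replicate 1, the lowest array for 55 of the 59 genes, was also the highest for 6 of 7 leukocyte markers, and the part of this in the list's difference was not tested. Without tumour replicate 1 its median was 0.05, the opposite sign, and without normal replicate 2 it was -0.13.

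None of 14 RNA polymerase I genes passed, with a median of -0.05 that turned to 0.04 with quantile normalization and 0.06 with core centring, to 0.03 with array weights, and to 0.20 and 0.02 without tumour replicate 1 and normal replicate 2. Ubtf, the factor that opens ribosomal DNA for this polymerase, had the lowest p in the list and differed by -0.61 (SE 0.19, limma, adjusted p = 0.246). Among 31 initiation factors none passed, and the median was -0.09, or 0.03 with core centring and -0.15 to -0.03 with single arrays left out. At an unadjusted p of 0.05, 9.68% of them were lower, near the 8.83% of all genes. The lowest p-values were those of Eif3d at -0.51 (SE 0.13), Eif4b, which helps unwind messenger RNA, at -0.71 (SE 0.22) and Eif4ebp1, the repressor of cap binding, at -0.51 (SE 0.17).

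The 10 elongation genes had a median of -0.18, which was -0.06 without tumour replicate 1, and none passed at an adjusted or an unadjusted p of 0.05. Eef1a1, which carries aminoacyl-tRNA to the ribosome, read 15.32, 15.29 and 15.24 in tumour LEC, against 15.27, 15.25 and 15.17 in normal LEC, and Eef2, the translocase, differed by -0.41 (SE 0.20). None of 76 mitochondrial ribosomal protein genes passed, with 78.9% below 0 and a median of -0.20. Tumour replicate 1 was the lowest array for 48 of the 76 and normal replicate 2 the highest for 44, and the median was -0.09 without tumour replicate 1, -0.10 without normal replicate 2 and -0.09 with array weights. The lowest p there was that of Mrpl28, at -0.72 (SE 0.18, limma, adjusted p = 0.182). Of 12 genes that signal to the ribosome (S6 kinases and the mTOR pathway) none passed, 6 lay on each side of 0, and Rps6ka3, a kinase of S6, differed by 0.44 (SE 0.19).

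**Figure D5:**
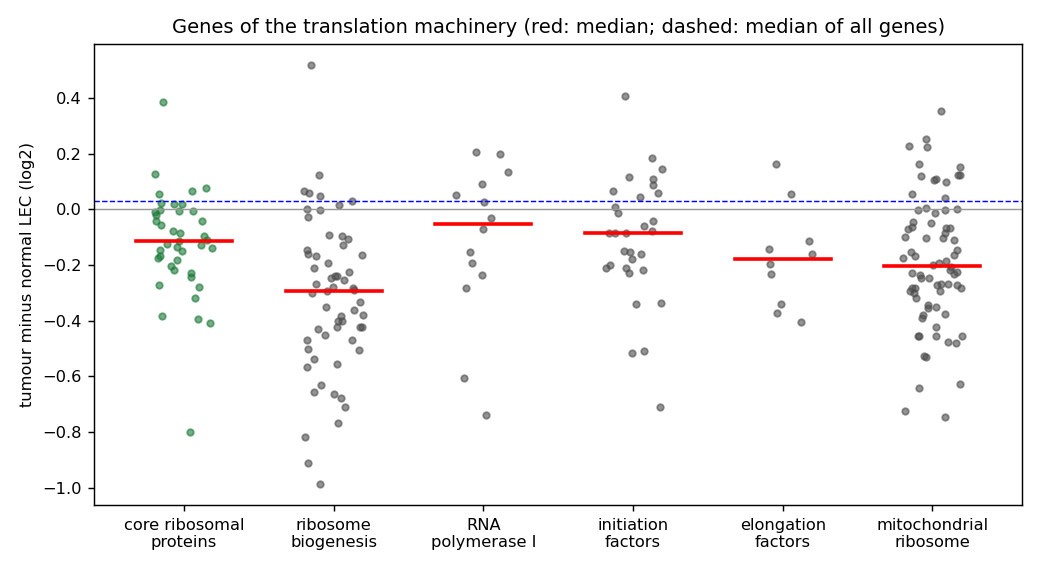
Difference between tumour and normal LEC on the log2 scale for the 41 tested core genes and for the genes of 5 related lists, with the median of each list in red and the median of all genes tested as a dashed line at 0.03. The medians lie between -0.29 (ribosome biogenesis) and -0.05 (RNA polymerase I), and no gene shown passed the adjusted threshold.

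Among MYC family genes, Mycn was higher in tumour LEC. It read 13.75, 13.33 and 13.08 in tumour LEC, against 2.90, 2.94 and 2.90 in normal LEC, where it was at background (limma, adjusted p = 8.66e-05). Myc itself differed by -0.07 (SE 0.27) and Max, the partner of both, by 0.16 (SE 0.19). Proliferation markers, which in many cells move with ribosome production, were below 0 for all 11 tested, with a median of -1.36. Their medians were 8.65 to 11.60 on the tumour arrays and 11.66 to 12.08 on the normal arrays, and their part in the core differences was not tested.

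RefSeq promoter windows of the same length were found for 37 core genes (43 windows) and 5 paralogues (7 windows). On either strand, CCGGAAG was in 41.9% of the core windows, against 8.86% of 32851 windows of all genes, and CACGTG in 11.6% against 7.15%. GGGCGG was in 53.5% against 35.7%, ATGGCGG in 11.6% against 4.05% and TATAAA in 11.6% against 13.6%. The pyrimidine-rich runs CTCTTTC and CTTTTCC were in 16.3% and 18.6% of core windows, against 8.16% and 8.06% of all windows. The core windows held a median of 22 CpG pairs, against 7 in all windows. The Rpl39l window held 17 CpG pairs and was 52.7% G and C, beside 17 and 58.0% for Rpl39. These shares are descriptions, and none of them was tested.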

How the data were processed

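The 6 arrays formed 2 groups of 3 and were analysed. Each deposited value is the log2 expression of 1 probe set. RMA and GCRMA are both named, per the submitters' processing notes, without saying which was used. Both correct background, normalize between arrays and summarise probes, and GCRMA draws dim signals to a floor. Gene names came from GEO's annotation of the platform, with symbols updated through RefSeq (GRCm38.p6), which changed 0.

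Probe sets with a mean above the 40th percentile (2.71) were kept, and the brightest per gene was used. Tumour and normal LEC were compared with limma 3.58.1 in R 4.3.3 (lmFit, eBayes; Benjamini-Hochberg over 12955 genes, two-sided). Paralogue ratios used exact permutation tests (scipy 1.17.1). Tested on simulated data for this comparison, with 12955 genes, the fit recovered 22%, 66%, 96% and 98% of the genes given shifts of 1, 2, 4 and 8 on the log2 scale, and 8 of 149 calls were unchanged genes. The simulated noise was independent between genes. Deviations that many genes of an array share, as in the ribosome biogenesis list, were not simulated, so these rates may not hold for the real arrays.

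Named were all paralogues and their parents, the 8 core genes with the largest differences in each direction, those at background, the brightest and dimmest, and up to 3 list genes per direction by p; others were named after their values were seen. Members and lists were chosen with earlier results of these data known. Alternatives changed the filter, normalization, variance model, array weights, probe set choice, block and arrays.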

Additional observations from a re-analysis of the deposited data

How the results depend on the processing

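Rpl39l was lower in tumour LEC in all 16 alternatives, at -6.32 to -5.45, and passed in 10 of them. Those that changed the filter, variance model, probe set choice or block could not alter the difference of a gene with 1 probe set. It was -6.00 in each of them, so only the other alternatives speak to its size. Besides the 5 fits named in the report, Rpl39l missed the threshold with no filter on low values (limma, adjusted p = 0.0662), where more genes are tested. Leaving out single arrays moved its adjusted p between 0.00512 and 0.189. The count of members lower at the threshold, 1 with all arrays, was 3 with array weights, 0 with no filter, and 0 to 1 with single arrays left out; no member was higher in any alternative. Over all genes, 28 calls became 97 with a 60th percentile filter, 385 with array weights, 87 with core centring, 10 with no filter, and 4 to 82 with single arrays left out. The replicate block gave 46 calls, left Rpl39l past the threshold (limma, adjusted p = 0.0371) and changed no other call among the members. The titles do not say whether same-numbered arrays are paired. Deviations of same-numbered arrays correlated at 0.19, 0.33 and -0.004. Tumour replicates 1 and 2 correlated best with the normal array of their number, and tumour replicate 3 with normal replicate 2. These correlations cannot show whether the arrays were paired. The core median was below 0 in 16 of 17 alternatives, the exception being core centring (0.0004). The block and the variance model could not move it, and it stayed at -0.11 in both. With single arrays left out it ranged from -0.15 to -0.09. Over probe sets that list several genes, an alternative chosen after the data were seen, it was -0.04. Core genes below 0 numbered 20 of 41 with core centring and 16 of 20 without the probe sets prone to match several transcripts. Rpl3l took the opposite sign with median centring (-0.0099) and quantile normalization (-0.0128), below background, and Rps27l with median centring (-0.0102) and among the fits that left out an array, which ran from -0.0102 (without normal replicate 2) to 0.1503. No value could be had for the ratios of Rpl7l1, Rpl22l1, Rps27l and Rps4l to their parents without those probe sets, nor for that of Rps27l with the 60th percentile filter, since a gene of the pair was left out. With 3 arrays a group, differences near the core median could not be resolved by the test, and signal at background limits Rpl39l in tumour LEC to a bound. The cause of these shifts was not tested, beyond fewer samples in the fits that left out an array.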
